A study of Mus musculus with 3 samples.

Results

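Oxidative phosphorylation subunits were examined in the choroid plexus epithelium (CPE), the cell layer that secretes the cerebrospinal fluid. Members were chosen by gene name in the array tables. They were all non-control probes named for Nduf genes, for Cox4 to Cox8 genes, for Uqcr, Sdh or Atp5 genes, or for Cyc1, Cycs or Cyct. This gave 122 of 41174 probes, for 86 genes. The rule used no measured value, but it was set with earlier results of these data known. CPE was laser dissected from 20 µm brain cryosections of 3 healthy C57BL/6 mice aged 18 to 21 weeks, 1 array per mouse, and its amplified RNA was labelled with Cy5 (red). The reference, the same RNA on every array, came from the RPE/choroid (retinal pigment epithelium and choroid of the eye) of C57BL/6 mice and was labelled with Cy3 (green). Neither tissue was treated and no allele was altered, so the single comparison is between tissues. The dyes were not swapped, which means that a dye bias of a probe stays in its ratio.

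Oxidative phosphorylation takes place in the inner mitochondrial membrane. Complex I accepts electrons from NADH and complex II from succinate, ubiquinone carries them to complex III, cytochrome c carries them to complex IV, and complex IV passes them to oxygen. Complexes I, III and IV pump protons, and the proton gradient drives complex V, the ATP synthase. The choroid plexus epithelium is rich in mitochondria and spends ATP on ion pumps that drive fluid secretion. Several subunits of complex IV exist as tissue isoforms: Cox6a2, Cox7a1 and Cox8b are known from heart and skeletal muscle, while Cox4i2 is known from lung and Cox6b2 from testis.

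Of the 122 probes, 115 probes for 83 genes passed the filter on dim probes, a signal well above background in CPE or in the reference on each of the arrays, and were tested. The rule also took in 7 probes of 5 genes that are no subunits. These are Cox4nb, a gene now placed in a complex of the endoplasmic reticulum, the assembly factors Ndufaf1 and Ndufa12l, Cox7a2l, which joins respiratory complexes, and Atp5s, a coupling factor. The 7 probes that were too dim to test were 1 probe each of Ndufab1, Ndufs1, Ndufs4, Cox4i2, Cox8c, Atp5f1 and the testis cytochrome c gene Cyct.

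The tissue labels were checked against marker genes. Of 12 tested CPE markers, 11 were higher in CPE by at least 2-fold, among them Ttr (log2 ratio 2.66), Kl (5.42) and Kcne2 (4.17). Of 11 tested RPE and melanocyte markers, 10 were lower, with Rpe65 at -6.71, and all 9 tested photoreceptor markers were lower. Of 12 skeletal muscle markers, 10 were lower in CPE, with a list median of -2.53. In the reference channel, 9 photoreceptor, 9 RPE and melanocyte, 9 CPE and 8 muscle markers ranked above the 90th percentile. So did 5 stromal, 4 macrophage, 3 endothelial, 3 neuron and 2 red blood cell markers. Also lower by 2-fold were 5 of 6 stromal, 5 of 6 macrophage, 4 of 8 neuron and 3 of 3 red blood cell markers. Endothelial markers had 0 of 6 past 2-fold, 2 higher at any fold and a median of 0.14. In the CPE channel, 5 stromal, 3 endothelial, 2 red blood cell, 2 macrophage, 2 photoreceptor and 2 RPE and melanocyte markers ranked above the 90th percentile. No neuron or muscle marker did. Well above background in the CPE channel were 24083, 18934 and 35234 probes in mice 1, 2 and 3, and of the oxidative phosphorylation probes 115, 113 and 119. Each array lay on its own slide, so mouse and slide cannot be told apart.

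Promoter sequences are shown for Cox6a1, Cox6b1 and Cox6b2, since the Cox6a and Cox6b isoform sets held the lowest and the highest ratio of all members. No promoter of Cox6a2, the gene with the lowest ratio, was among the promoters used, so none is shown. Each line gives the 250 bases before the transcription start, 5′ to 3′ on the minus strand, from RefSeq on build GRCm38.p6, at chr5:115348959-115349208, chr7:30626115-30626364 and chr7:4753095-4753344. Capitals mark matches to the motif of NRF1 (nuclear respiratory factor 1), of ETS factors and GABP (CCGGAAG) or of YY1 (AAGATGGC) on either strand. The motifs do not overlap in these lines.
Cox6a1: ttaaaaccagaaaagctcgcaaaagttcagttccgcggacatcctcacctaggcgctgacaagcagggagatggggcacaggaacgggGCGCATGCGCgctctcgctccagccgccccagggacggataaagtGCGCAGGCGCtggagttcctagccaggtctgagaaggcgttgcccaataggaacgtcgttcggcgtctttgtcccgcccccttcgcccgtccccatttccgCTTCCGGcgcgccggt
Cox6b1: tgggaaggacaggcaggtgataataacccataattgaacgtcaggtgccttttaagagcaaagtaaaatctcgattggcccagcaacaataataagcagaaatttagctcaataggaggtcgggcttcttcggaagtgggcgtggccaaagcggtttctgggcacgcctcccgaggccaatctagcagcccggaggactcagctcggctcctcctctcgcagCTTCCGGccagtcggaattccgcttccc
Cox6b2: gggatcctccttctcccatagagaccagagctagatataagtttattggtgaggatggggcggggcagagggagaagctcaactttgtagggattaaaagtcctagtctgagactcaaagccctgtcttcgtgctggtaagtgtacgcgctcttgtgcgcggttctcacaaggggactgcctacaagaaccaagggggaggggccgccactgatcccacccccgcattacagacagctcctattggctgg
The Cox6a1 stretch held 2 matches to the NRF1 motif and 1 to the ETS motif, the Cox6b1 stretch held 1 match to the ETS motif, and the Cox6b2 stretch held 0. Promoter windows of 300 bases were found for 65 of 80 current subunit genes. The NRF1 motif was in 24.6% of these genes against 5.19% of all 27025 genes with a window, the ETS motif in 24.6% against 9.93%, and the YY1 motif in 15.4% against 3.19%. Among the genes with an NRF1 match were Uqcrc1, Sdha, Sdhd, Ndufb4 and Cox6a1, and among those with a YY1 match were Ndufa3, Ndufs7 and Atp5j. Windows with none of the motifs included those of Cox6b2, Ndufa1, Atp5g1, Cox5b and Cox7b. Whether a motif goes with the ratio was not tested. A match is a run of letters and not a shown binding site.

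Oxidative phosphorylation probes were among the brightest on the arrays. In CPE, 98 of 122 (80.3%) lay above the 90th percentile of all probes, the high class, which by construction holds 10% of all probes. Of these, 95 were in the high class in each mouse, and 55 of the 122 lay above the 99th percentile, which holds 1.00% of all probes. The other probes were 15 of moderate, 7 of low and 2 of very low class. By gene, 78 of 86 had a probe that was high. The median percentile was 98.6 in CPE and 97.9 in the reference, where 98 probes were high too. A percentile ranks a probe and does not order transcripts of different genes. Probes whose accession matched a current gene record were high in 90.5% of 105 cases, and the 17 probes without a match in 17.6%, with a median percentile of 61.5.

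**Figure D1:**
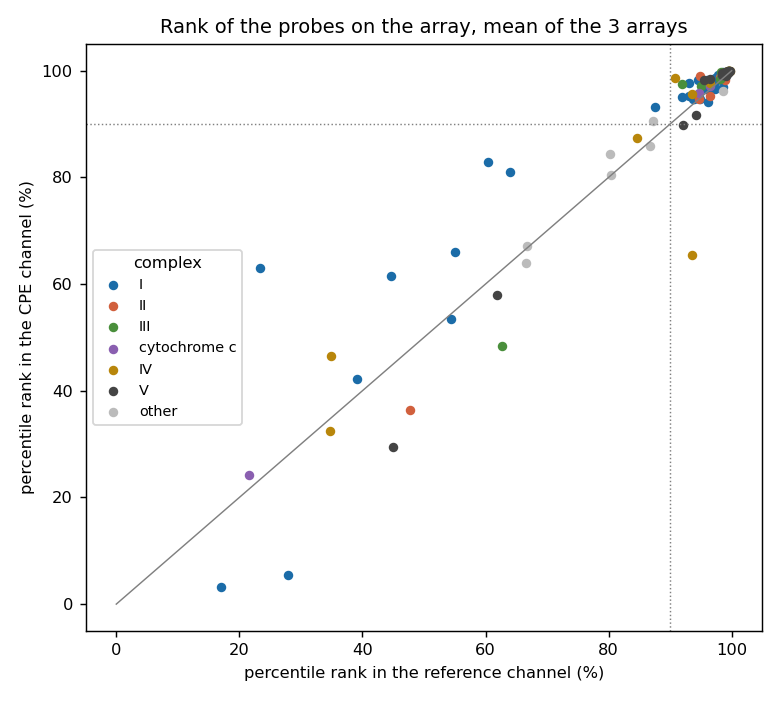
Percentile rank of each of the 122 probes in the CPE channel (y axis, %) against the reference channel (x axis, %), each the rank of the mean over 3 arrays, coloured by complex. Dotted lines mark the 90th percentile and the grey line equal ranks. Most probes crowd into the upper right corner, and Cox6a2 (complex IV) stands out at 65.4 in CPE and 93.6 in the reference.

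The first comparison asked which subunits differed in level between CPE and the RPE/choroid reference. Of 99 tested probes of complexes I, III, IV and V, 62 were higher in CPE, 45 of them by less than 2-fold, and 3 were lower. A few genes stood further apart, among them Cox6b2, Sdhc, Ndufa1 and Uqcrc1 above and Cox6a2 below. The median log2 ratio of CPE over reference was 0.52 over the 115 tested probes, against -0.04 over all 25847 tested probes. In mice 1, 2 and 3 it was 0.47, 0.55 and 0.57, against -0.02, -0.03 and -0.09. At an adjusted p below 0.05 in limma and a change of at least 2-fold, 18 probes (15.7%) were higher in CPE, where 7.09% of all tested probes were, and 3 (2.61%) were lower, where 10.2% were. With no limit on the fold, 65 probes (56.5%) were higher against 16.9% of all, 5 (4.35%) were lower against 22.3%, and 45 did not pass. Without mouse 1, 34 were higher and 3 lower at any fold, where 7.61% and 13.5% of all tested probes were. Several 2-fold calls near the limit rested on single mice: without mouse 2, Ndufb7 had a mean of 1.00, Ndufb2 of 0.97, Atp5e of 0.96 and Cox7a2l of -0.93, without mouse 1 Ndufa3 had 0.98 and Atp5g2 0.91, and without mouse 3 Atp5g2 had 0.92 and Ndufb7 1.00, each just short of 2-fold. Others gained the call. Without mouse 1 these were Cox6c (1.21), Cox6a1 (1.10) and Cox7b (1.04), and without mouse 3 a dim Ndufab1 probe (1.36). Without mouse 2 they included Cox4i1 (1.00), Cox6a1 (1.01) and the second Atp5g2 probe (1.02). Ndufa13, short of 2-fold with a mean of 0.97 over all mice, had 1.00 and 1.02 in mice 1 and 3. All 3 mice were above 0 for 83 probes (background 28.8%) and below 0 for 9 (background 36.6%). With the brightest tested probe of each gene, 52 of 83 genes were higher and 4 lower in this same fit. Refitted on 1 probe per gene, 52 of 84 members were higher and 6 lower. In that fit 19.8% of all 18285 probes were higher and 24.8% lower.

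The size of this shift depended on the normalization. Loess, which was used here, removes the trend of the ratio with brightness. With plain median centring of each array the members' median was 1.36 against 0.09 over all tested probes, a shift of all probes from -0.04, and 78 members passed the 2-fold call where 14.5% of all tested probes did. By mouse the centred members' medians were 1.88, 1.79 and 0.48, against 0.40, 0.05 and -0.03 over all tested probes. The direction of the median was the same in each mouse under both, while its size under median centring was lower in mouse 3 than in the others. The array of mouse 3 also had the brightest background in the CPE channel (363, against 81.2 and 82.6), and the part of this in its ratios was not tested. Without the members in the loess curve their median was 0.59, and with the scanner's own ratio it was 0.62. Fewer cells of a type and less RNA per cell cannot be told apart in these samples.

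**Figure D2:**
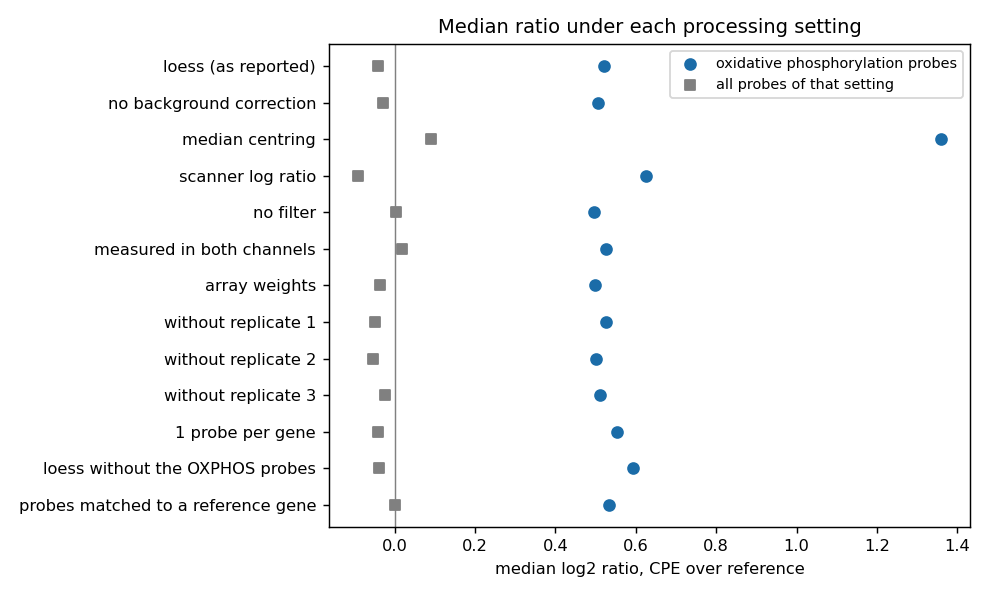
Median log2 ratio of CPE over reference (x axis) of the oxidative phosphorylation probes (circles) and of all probes in that setting (squares), for each way of processing (y axis). The members' median lies between 0.497 and 0.625 in each setting drawn other than median centring, where it is 1.36.

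**Figure D3:**
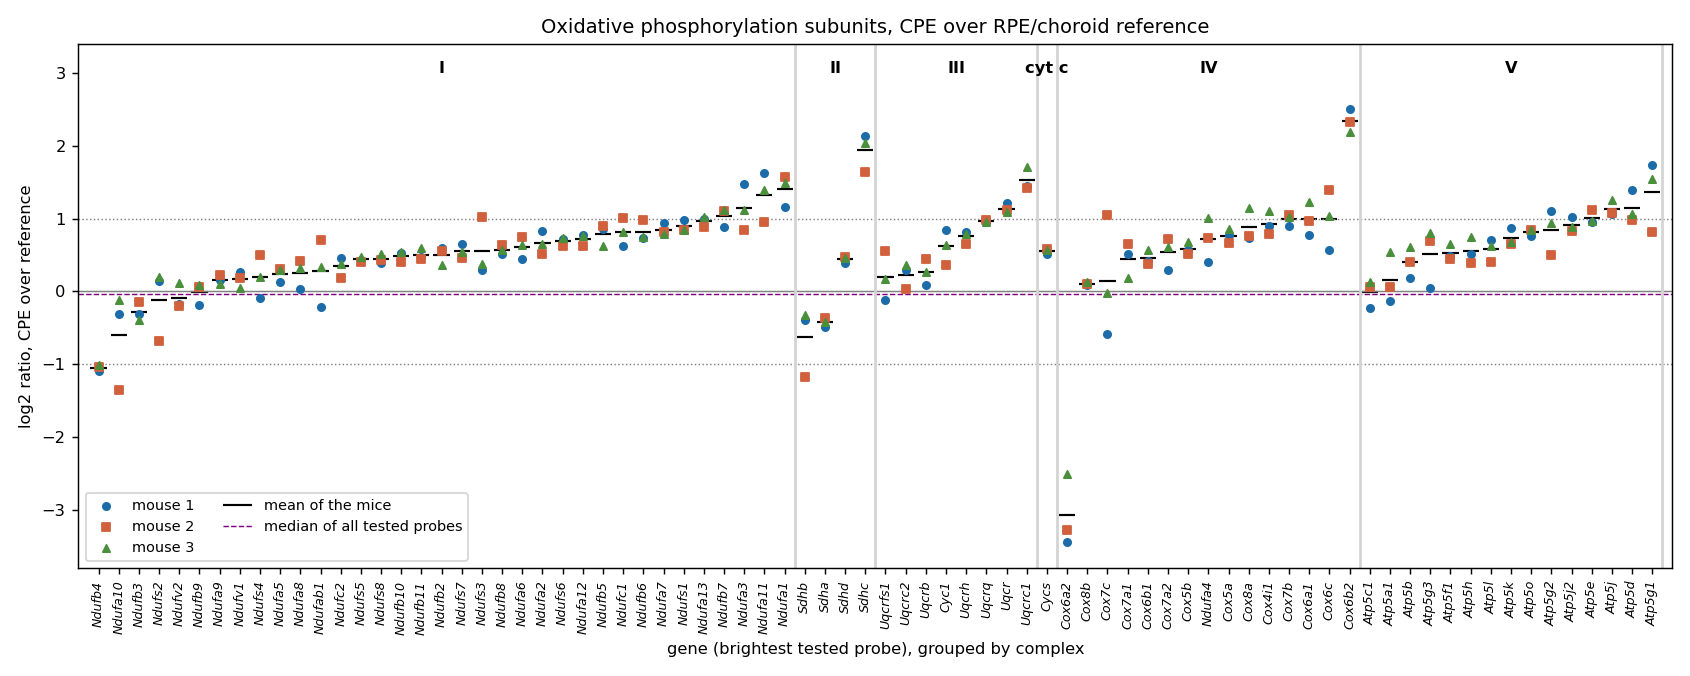
Log2 ratio of CPE over reference (y axis) of the brightest tested probe of each subunit gene (x axis), grouped by complex and sorted by mean. Symbols are mice 1 to 3, bars their mean, dotted lines a 2-fold change and the dashed line the median of all tested probes. Cox6b2 and Sdhc lie highest and Cox6a2 lowest, and in complexes I, III, IV and V most genes lie above 0 in all 3 mice.

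Complex I holds core subunits, which carry the redox centres and the quinone site, and accessory subunits around them. Of 50 tested probes of 35 genes, 31 were higher and 1 lower, with a median log2 ratio of 0.55, and 8 were higher by at least 2-fold. All 8 belonged to accessory subunits. The 7 core probes had 4 higher, 0 past 2-fold and a median of 0.45, and the 43 accessory probes had 27 higher, 1 lower and a median of 0.56. The difference between both kinds was not tested.

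Ndufa1, a small accessory subunit needed for the assembly of the complex, was the highest gene of complex I. Its probe at chrX:33621323-33621382 (mm8) had log2 ratios of 1.71, 1.70 and 1.65 in mice 1 to 3, a mean of 1.69 (SE 0.15, adjusted p = 0.000149, limma). The second probe had 1.16, 1.58 and 1.48 and was saturated in CPE on all 3 arrays, so its fold is a bound of at least 2.65 (adjusted p = 0.000535). Both probes were above 2-fold in every mouse. Ndufa11, another membrane arm subunit, followed with 1.61, 1.09 and 1.48 at one probe and 1.62, 0.96 and 1.40 at the other. Ndufa3 (mean 1.15) and Ndufb7 (1.04) also passed 2-fold, at the 99.5th and 99.1st percentile. A second Ndufa3 probe, of the 42.3rd percentile, had a mean of 0.16 and did not pass (adjusted p = 0.460).

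The remaining calls of complex I came from genes whose probes differed. Ndufab1, the mitochondrial acyl carrier protein, had log2 ratios of 1.56, 2.14 and 0.78 at a probe of the 82.9th percentile, 1.41, 1.30 and -0.00 at a dimmer one, and -0.22, 0.71 and 0.34 at its brightest probe, of the 97.9th percentile. The brightest probe did not pass (adjusted p = 0.319). Likewise Ndufb2 had a mean of 1.14 at a probe of the 81.0th percentile and 0.50 at the brighter one (98.5th). For both genes the dimmer probes gave the larger ratio.

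At the lower end of complex I, Ndufb4 was the only subunit of the complex that was lower in CPE. It had -1.09, -1.04 and -1.01, a mean of -1.05 (SE 0.15, adjusted p = 0.00141), at the 97.0th percentile in CPE. It passed no threshold under median centring (-0.22, adjusted p = 0.685). Ndufa10 had -0.30, -1.36 and -0.12 and did not pass (adjusted p = 0.0944), with mouse 2 below the others. Ndufb3 had -0.31, -0.14 and -0.39 and did not pass either (adjusted p = 0.184).

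Complex II, succinate dehydrogenase, is also an enzyme of the TCA cycle and is encoded wholly in the nucleus. Its median over 6 probes of 4 genes was -0.11, below the 0.55 to 0.65 of complexes I, III, IV and V. Of these 6 probes, 2 were higher and 1 lower. They include 2 probes of Sdha and a dim probe of Sdhc, and the difference from the other complexes was not tested. Sdhc, a membrane anchor, had the second highest ratio of all members. Its probe at chr1:172966201-172966260 (mm8) had 2.14, 1.64 and 2.03, a mean of 1.94 (SE 0.17, adjusted p = 0.000138). A second probe 11935 bases away, at the 36.5th percentile in CPE and not matched to a gene record, had -0.37, -0.14 and 0.07. Sdhd, the other anchor, was higher by 0.40, 0.47 and 0.45 (adjusted p = 0.0492).

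The catalytic subunits of complex II went the other way or did not pass. Sdhb, the iron-sulfur subunit, was lower in CPE at -0.39, -1.17 and -0.32, a mean of -0.63 (adjusted p = 0.0437), with mouse 2 the lowest, and turned to 0.19 (adjusted p = 0.717) under median centring. Sdha, the flavoprotein, had -0.48, -0.36 and -0.42 at one probe (adjusted p = 0.0571) and 0.04, -0.69 and 0.41 at the other (adjusted p = 0.807). Neither Sdha probe passed.

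In complex III, cytochrome bc1, 7 of 11 probes were higher and 1 lower, with a median of 0.62. Uqcrc1, a core protein on the matrix side, was the highest, and its probes gave close values: 1.45, 1.42 and 1.71 at chr9:108806516-108806575 and 1.69, 1.36 and 1.46 at chr9:108805900-108806379 (mm8). The means were 1.52 (SE 0.15, adjusted p = 0.000303) and 1.50 (SE 0.16, adjusted p = 0.000337). Uqcr, now named Uqcr11, had 1.21, 1.12 and 1.09. The partner core protein Uqcrc2 had 0.30, 0.03 and 0.36 and did not pass (adjusted p = 0.287). Of the redox subunits, Cyc1 (cytochrome c1) was higher at 0.85, 0.37 and 0.64 (adjusted p = 0.0205), and Uqcrfs1, the Rieske protein, had -0.11, 0.55 and 0.17 (adjusted p = 0.407). Uqcrb had a mean of 0.27 (adjusted p = 0.217). Uqcrq, a small subunit, was higher at its bright probe (0.95, 0.99 and 0.96, 99.7th percentile) and lower at a dim unmatched probe (-0.74, -0.45 and -0.63, 48.5th percentile).

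Cytochrome c, the carrier between complexes III and IV, had 3 tested probes, all of the somatic gene Cycs. One was higher, at 0.52, 0.59 and 0.57 (adjusted p = 0.0203), and the others had means of 0.22 and 0.21 and did not pass. Testis cytochrome c, Cyct, was too dim to test and lay at the 24.2nd percentile in CPE.

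In complex IV, cytochrome c oxidase, 11 of 16 probes were higher and 1 lower, with a median of 0.65, but 1 passed 2-fold above and 1 below. A further 4 probes lay just short of 2-fold: Cox6c, Cox6a1 and Cox4i1 (each saturated in CPE on 1 array) and Cox7b. They passed it with the members left out of the loess curve, with median centring and on the ratio of the scanner. Cox8a (0.88, saturated in CPE on all 3 arrays) had 1.85 with median centring and 1.09 on the ratio of the scanner. In the main setting, the probes past 2-fold were both of isoforms known from particular tissues. Cox6b2 at chr7:4354973-4355032 (mm8) had 2.50, 2.33 and 2.19, a mean of 2.34 (SE 0.15, adjusted p = 4.36e-05). Its probe ranked at the 98.6th percentile in CPE and the 90.8th in the reference. Cox6a2 at chr7:127996794-127996853 (mm8) had -3.44, -3.28 and -2.51, a mean of -3.08 (SE 0.21, adjusted p = 4.83e-05), and ranked at the 65.4th percentile in CPE. All mice were far above 0 for Cox6b2 and far below 0 for Cox6a2.

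Of the widely expressed counterparts, Cox6b1 was higher at 0.42, 0.38 and 0.57 (adjusted p = 0.0453), and Cox6a1 at 0.78, 0.96 and 1.23 (adjusted p = 0.00269), held down by saturation on 1 array. The lower Cox6a2 stood beside lower skeletal muscle markers: their ratios ran from -3.64 (Tnnc2) to 0.29, and the summed level of the 12 markers was 26100 to 29800 in the reference and 3420 to 5480 in CPE. By mouse the median of the muscle list was -3.04, -2.95 and -1.88, nearest to 0 in mouse 3 as was Cox6a2. This order was not particular to muscle. The medians of the RPE and melanocyte (-4.45), photoreceptor (-4.48) and neuron (-1.15) lists were also nearest to 0 in mouse 3. Those of the stromal, macrophage and red blood cell lists were not. The part of muscle RNA in the Cox6a2 ratio was not tested. The other muscle isoforms of complex IV did not pass the test: Cox7a1 had 0.51, 0.65 and 0.18 (adjusted p = 0.0641), and Cox8b had 0.09, 0.10 and 0.13 (adjusted p = 0.603) at the 99.3rd percentile in CPE and the 99.1st in the reference.

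**Figure D4:**
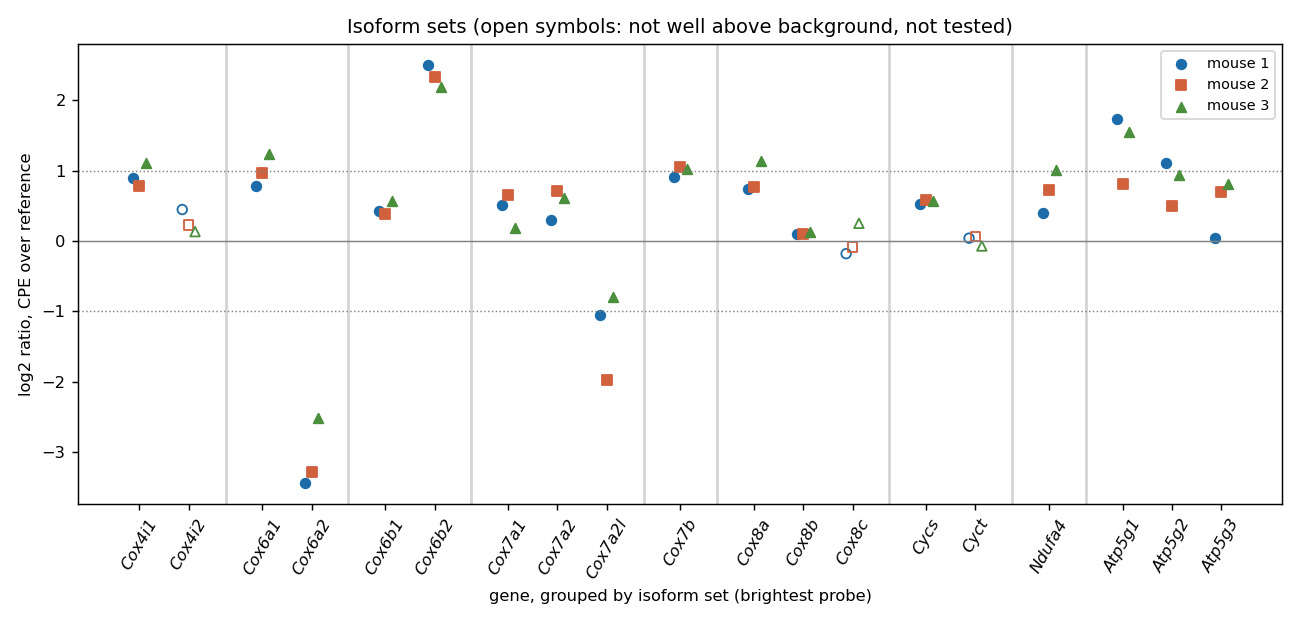
Log2 ratio of CPE over reference (y axis) of the brightest probe of each gene of the isoform sets (x axis), 1 symbol per mouse. Dotted lines mark a 2-fold change and open symbols probes too dim to test. Cox6a2 lies between -3.44 and -2.51 and Cox6b2 between 2.19 and 2.50, while the other members of their sets lie between 0.38 and 1.23.

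Other isoform sets of complex IV gave smaller values. Cox4i1, the usual form of the subunit 4, was higher at 0.90, 0.78 and 1.10 (adjusted p = 0.00297), saturated on 1 array, while Cox4i2 was too dim to test. Cox7a2 was higher at its first probe (0.29, 0.72 and 0.62) and not at its second (0.05, 0.91 and 0.60, adjusted p = 0.0715). Cox7a2l, which is no subunit, was lower at -1.06, -1.98 and -0.80 (adjusted p = 0.00467) and not past the threshold under median centring (-0.49, adjusted p = 0.306). Cox7b was higher at 0.90, 1.05 and 1.02. Cox8a, saturated in each CPE channel, was higher by at least 1.84-fold (adjusted p = 0.00466), and Cox8c was too dim. Ndufa4, once assigned to complex I, was higher at 0.40, 0.73 and 1.01, saturated on 2 arrays. Cox7b2 lay at the 6.5th percentile in CPE. Cox6c had 0.57, 1.39 and 1.03 (adjusted p = 0.00555), saturated on 1 array, and Cox7c had -0.59, 1.04 and -0.02 and did not pass (adjusted p = 0.721).

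In complex V, 13 of 22 probes were higher, 0 lower and 5 past 2-fold, with a median of 0.57. Of the 3 genes for the c subunit of the rotor ring, which encode the same mature protein behind different import sequences, Atp5g1 was highest at 1.74, 0.81 and 1.55 (mean 1.37, SE 0.21, adjusted p = 0.00195). Atp5g2 had 1.19, 0.65 and 1.17 at one probe (mean 1.01) and 1.11, 0.50 and 0.94 at the other (0.85). Atp5g3 had 0.04, 0.70 and 0.81 and did not pass (adjusted p = 0.0678). Mouse 2 was the lowest for Atp5g1 and Atp5g2 and mouse 1 for Atp5g3. The rotor stalk subunits Atp5d (mean 1.14) and Atp5e (1.01) and the coupling factor subunit Atp5j (1.13) were also past 2-fold.

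The alpha, beta and gamma subunits of complex V, which form its catalytic head and central shaft, did not pass the test. The brightest probes of Atp5a1 (alpha subunit) and Atp5b (beta subunit) had means of 0.16 (adjusted p = 0.531) and 0.40 (adjusted p = 0.0863), the other Atp5a1 probe had 0.44 (adjusted p = 0.0628), and Atp5c1 (gamma subunit) had -0.01 (adjusted p = 0.960). This depended on the normalization. Under median centring both Atp5a1 probes (1.34, adjusted p = 0.0118, and 1.07, adjusted p = 0.0272) and the brightest Atp5b probe (1.39, adjusted p = 0.0117) passed 2-fold, and with the members left out of the loess curve the dimmer Atp5a1 probe (0.53, adjusted p = 0.0349) and that Atp5b probe (0.52, adjusted p = 0.0369) passed at any fold. Atp5c1 passed under neither. Atp5f1, of the peripheral stalk, was higher at its bright probe (mean 0.53, adjusted p = 0.0275) and had -0.48 (adjusted p = 0.0552) at another.

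Atp5b varied most between mice. Its 3 probes lie on the plus strand at chr10:127487371-127488049, chr10:127488462-127488521 and chr10:127493148-127493207 (mm8). Mouse 1 had -0.03, 0.39 and 0.18 in that order, mouse 2 had -2.31, -1.79 and 0.40, and mouse 3 had 0.52, 0.97 and 0.62. Mouse 2 was thus low at both upstream probes and inside the range of the others at the probe nearest the 3′ end. The log2 levels of the middle probe in CPE were 14.6, 12.3 and 14.8. Without mouse 2 its ratio turned from -0.14 to 0.68 (adjusted p = 0.0370). Of 21 genes with tested probes at least 100 bases apart, Atp5b among them, 15 had mouse 2 lower at the 5′ than at the 3′ probe. Here mouse 2 was read against the mean of the other mice. The gap was wide in Sdha (-0.92 against 0.09) and very small in Atp5j2 (-0.128 against -0.127). It was also small in Atp5g2 (-0.528 against -0.525) and Ndufa7 (-0.0587 against -0.0535). Wide gaps the other way were seen in Ndufa3 (0.25 against -0.46) and Ndufa12 (0.309 against -0.142). The share over all genes of the array was not computed, and the cause of these gaps was not tested.

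**Figure D5:**
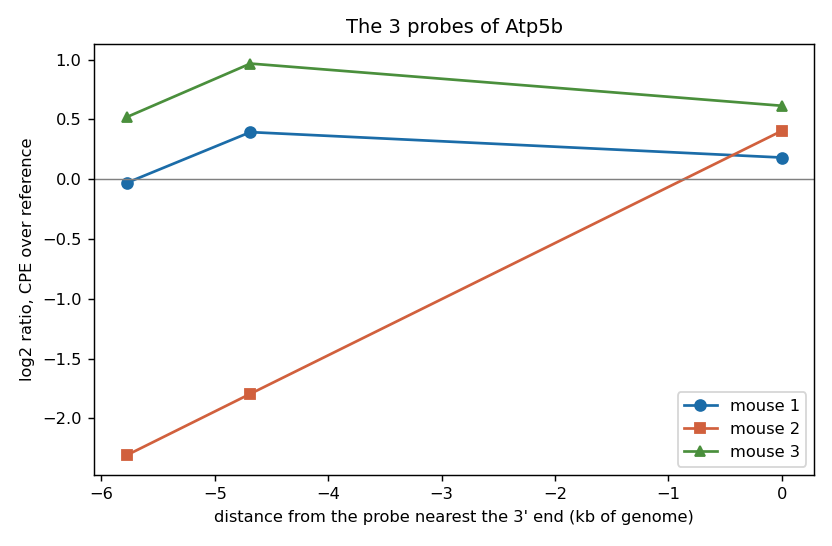
Log2 ratio of CPE over reference (y axis) at the 3 Atp5b probes, by distance in genome kb from the probe nearest the 3′ end (x axis), 1 line per mouse. Mouse 2 lies at -2.31 and -1.79 at the upstream probes and at 0.40 at the 3′ probe.

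The median SD of the members' log2 ratio over the 3 mice was 0.18, against 0.26 over all tested probes. With median centring this order turned, with 0.80 against 0.51. Apart from Atp5b, the largest SDs of the CPE level were those of Ndufa12 (12.3, 12.5 and 10.3 at 1 of its 3 probes), the dim Ndufs4 probe (7.26, 7.17 and 9.22) and Atp5h (15.2, 15.2 and 13.3 at 1 of its probes). For Ndufa12 and Atp5h the drop in mouse 3 was in both channels, and the ratios stayed within -0.30 to 0.26 and 0.60 to 0.71. Of 26 genes with several tested probes, 5 differed by at least 2-fold between probes: Sdhc, Uqcrq, Ndufab1, Atp5f1 and Atp5b. In Sdhc and Uqcrq the lower probe was dim and not matched to a gene record. The share of such genes over the whole array was not computed.

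Of 6 tested probes for subunits that the array named otherwise, 3 were higher and 3 did not pass, with a median of 0.53. Uqcr10 (complex III) was higher at 1.25, 1.11 and 1.32 (adjusted p = 0.000730), and Usmg5, now Atp5md (complex V), at 0.96, 1.16 and 0.84. Ndufv3, of complex I, was higher at 1 probe (mean 0.74) and did not pass at the others (0.22 and -0.34, the latter with mouse 2 at -1.29), and Atp5mpl (0.31) did not pass. Of the genes encoded in mitochondrial DNA 3 were tested, and all were saturated in CPE and not in the reference on each array, so their ratios are held down and no test of them is read here. ND4L had -0.46, -0.05 and 0.00, CYTB had -0.11, 0.09 and 0.32, and COX2 had -0.17, 0.53 and 0.81, each a lower bound.

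Gene lists around the pathway were read by their brightest probe per gene, beside 7.09% higher and 10.2% lower by 2-fold over all tested probes. At any fold, 16.9% of all tested probes were higher and 22.3% lower. Of 24 genes of the TCA cycle and pyruvate dehydrogenase, 5 were higher by at least 2-fold and 0 lower, with a median of 0.37. The highest were Pdk2 (2.25) and Pdk4 (1.91), kinases that inhibit pyruvate dehydrogenase, and Ogdh (1.39), the oxoglutarate dehydrogenase, which had 2.32, -0.11 and 1.97. Of 31 assembly factors 0 were higher and 1 lower by at least 2-fold (Cox16 at -1.38), with a median of 0.16, and 7 were higher and 4 lower at any fold. Of 19 carriers and uncoupling proteins, Ucp2 (1.91), which carries metabolites across the inner membrane, and Slc25a13 (1.36), an aspartate and glutamate carrier, were higher by at least 2-fold, and the mitochondrial creatine kinase of muscle, Ckmt2 (-1.78) was lower, with a median of 0.20. Among 21 regulators of mitochondrial gene expression 1 was higher and 5 were lower by at least 2-fold, with a median of -0.06, and 3 were higher and 7 lower at any fold. Esrra, a nuclear receptor that acts on mitochondrial genes, was higher (1.25), and its coactivator Ppargc1b (-1.54) and relative Esrrb (-1.30) were lower. Under median centring 14 TCA genes, 7 assembly factors and 8 carriers passed 2-fold above, and 1 regulator passed below, where 14.5% and 7.13% of all tested probes did.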

How the data were processed

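RNA of laser dissected CPE (Cy5) and of the reference (Cy3) was hybridised to 3 mouse arrays. Per the labels, images were read with Agilent Feature Extraction 9.5.3.1, and the deposited tables hold linear spot intensity of the red and the green channel. The deposited log10 ratio of the scanner and the authors' log2 levels after Aquantile served as alternatives. Members and lists were chosen with earlier results of these data known.

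With R 4.3.3 and limma 3.58.1, intensities were corrected by normexp (offset 50) and loess within arrays, without control and outlier spots, and spots of a probe were averaged. The 25847 probes with a signal well above background in CPE or in the reference on each array were tested against a log2 ratio of 0 with Benjamini-Hochberg adjustment. The reference was 1 RNA, so its biological spread is not in the error. A saturated probe was given a bound, the CPE mean over the reference mean held at or above the lowest signal well above background, which is open to dye bias. Percentiles used log2 mean intensity, Aquantile and all probes. The number of arrays limits precision.

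Genes named were all probes past 2-fold, all isoform sets, subunits of complex II and core subunits of complexes III and V, the 3 highest and lowest genes per complex, the 5 most discordant genes and most variable probes, and the 3 largest calls per pathway list. Marker genes named as examples were chosen after their values were seen. Probe accessions matched a current gene for 23477 probes. Probe positions are mm8, for which no annotation was used. Cross-hybridisation was not tested. The test was checked on simulated data.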

Additional observations from a re-analysis of the deposited data

How the results depend on the processing

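With median centring the 2-fold counts went from 18 to 78 higher and from 3 to 1 lower, the lower count at any fold from 5 to 1, the median from 0.521 to 1.36, the isoform probes from 3 to 15 higher and from 2 to 1 lower, the median SD of the ratio from 0.179 to 0.804, mitochondrially encoded probes from 0 to 2 higher, assembly factors from 0 to 7 higher and from 1 to 0 lower, TCA genes from 5 to 14, carriers from 2 to 8, and regulators from 1 to 2 higher and from 5 to 1 lower. Sdhb turned to 0.194. The cause was not tested. The scanner ratio gave a median of 0.625, 43 probes higher at any fold against 65, and 7 isoform probes higher. Of all tested probes, 13.3% were higher at any fold with the scanner ratio, against 16.9%. Loess without the members, chosen after seeing the data, gave a median of 0.592 and 7 isoform probes higher. Tested against 2-fold itself (limma treat), 3 of 115 members were higher and 1 lower, where 1.76% and 3.71% of all tested probes were. Of the isoform probes, 1 passed each way. Without the probes that are no subunits, 1 isoform probe was lower. Leaving out each mouse gave 17 to 19 members higher and 2 to 3 lower by 2-fold. Of all tested probes, 5.54% to 9.6% were higher and 10% to 10.9% lower by 2-fold. At any fold, 34 (without mouse 1) to 56 members were higher and 3 to 5 lower. Over all tested probes, 7.61% (without mouse 1) to 20.6% were higher and 13.5% to 21% lower at any fold. Leaving out each mouse also gave 2 to 6 (without mouse 2) isoform probes higher, 1 (without mouse 2) to 2 lower, and medians of 0.502 to 0.526. The middle Atp5b probe ranged from -0.700 to 0.681, the latter without mouse 2. Of the values for single probes, 569 stayed on their side of the 2-fold call, 19 of these with a change of sign between values that did not pass at any fold, 46 gained the call, 12 lost it and the 2 of Sdhb and Atp5b named here reversed. The count of high probes ranged from 77, with 1 value per gene, to 98. No paired analysis was possible because there was only 1 group. Saturation limits 7 members in CPE and 0 in the reference.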
